A study of Mus musculus with 26 samples.

Results

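The genes of the mouse Hox clusters were examined in embryonic stem (ES) cells with and without ZFP57. Members were all rows of the deposited expression table whose symbol names a gene of the Hoxa, Hoxb, Hoxc or Hoxd cluster, 39 of the 24409 rows. The clusters contributed 11 genes (Hoxa, chromosome 6), 10 genes (Hoxb, chromosome 11), 9 genes (Hoxc, chromosome 15) and 9 genes (Hoxd, chromosome 2). The wild-type (WT) group had 3 RNA-seq libraries and the ZFP57 knockout (KO) group had 2, all from male ES cells of the C57BL/6J strain. KO cells were zygotic homozygous mutants, taken from embryos in which the *Zfp57* exons encoding the KRAB domain and the zinc fingers had been disrupted. All came from the inner cell mass of embryos taken as morulae at E2.5 and cultured further, and were kept in medium with LIF and inhibitors of Erk and Gsk3, which holds ES cells in the naive, ground state. The study speaks of WT and mutant lines, but which line a numbered sample came from is not given, so the p-values measure the spread between these samples. Libraries were made from total RNA depleted of ribosomal RNA and read as pairs of 150 bp. Expression is given as FPKM, the fragments of a gene scaled by transcript length and library size.

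Hox genes encode homeodomain transcription factors that give cells along the head-to-tail axis of the embryo their position. In each cluster they lie in the order in which they are switched on, from the anterior paralogue group 1 to the posterior group 13, and paralogues of the same number in different clusters are copies of one ancestral gene. In naive ES cells the clusters are held at a low level by Polycomb repressive complex 2 (PRC2), which methylates histone H3 at lysine 27. Retinoic acid, Wnt signalling and the Cdx factors open the clusters from the anterior end during differentiation. ZFP57 is a KRAB zinc finger protein that binds a methylated hexanucleotide at imprinting control regions and at many transposable elements. The comparison of WT and KO addresses which genes change when this protein is lost.

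*Zfp57* itself measured 75.9, 72.3 and 70.5 FPKM across WT and 19.0 and 21.6 FPKM across KO, so it was lower in both KO libraries. The values of the table do not separate its disrupted exons from the rest. Read counts were not used here. Judged from the spacing of low FPKM values of short RNA genes, 1 fragment on 1 kb was worth 0.01705 to 0.01975 FPKM in these libraries, and fragment numbers below are inferred from it. Of the 14 markers of naive ES cells, among them *Pou5f1* and *Nanog*, all 14 had a mean of at least 1 FPKM, and 7 were higher and 4 lower in KO (78.6% called, where 41.1% of all tested genes were). *Tfcp2l1*, *Klf4* and *Tbx3* were higher in KO by 0.60, 0.74 and 0.58 on the log2 scale, and *Dppa3* (-2.30), *Prdm14* (-0.43), *Klf2* (-0.28) and *Fgf4* (-0.18) were lower. The *Tbx3* call was lost without WT replicate 2 (limma's adjusted p = 0.0512) or KO replicate 2 (0.0571), that of *Klf2* without KO replicate 2 (0.0869) and that of *Fgf4* without any 1 library but WT replicate 2 (0.0667 to 0.0986). Of 16 fibroblast markers, which feeder cells would carry, 6 had a mean of at least 0.1 FPKM, with *Vim* far above the rest, and *Col3a1*, *Dcn* and *Lum* were listed at 0 in all 5 libraries. Differences were tested with limma on log2(FPKM + 0.1) over the 14617 genes that averaged 0.1 FPKM or more across the 5 libraries, with Benjamini-Hochberg adjustment over all of them and a threshold of 0.05. Fold changes below are on this log2(FPKM + 0.1) scale, KO against WT, which understates the change of low genes. An exact permutation test of a single value with 3 against 2 libraries cannot give a p under 0.1, so every call rests on limma's model across genes.

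Hox genes were weakly expressed in both genotypes, and their summed level, most of it from Hoxc, was higher in KO. The summed level of the 39 genes was 6.19, 5.92 and 5.37 FPKM in WT and 11.1 and 14.8 FPKM in KO. Both KO libraries were above all WT libraries, with a ratio of group means of 2.22. Only 8 of the 39 genes had a WT mean of at least 0.1 FPKM, against 17 with a KO mean of at least 0.1 FPKM. Both KO libraries exceeded every WT library for 19 of the 39 genes and lay below every WT library for 0 of the 39, where over the whole table the shares were 19.6% above and 22.8% below. In bulk RNA, a gene switched on in few cells and a small change in every cell cannot be told apart.

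Of the 39 Hox genes, 14 reached the level required for testing, 4 of Hoxa, 2 of Hoxb, 6 of Hoxc and 2 of Hoxd. Under limma's adjusted threshold 9 of the 39 were higher in KO and 0 were lower, where 18.8% of all tested genes were higher, 22.3% were lower and 41.1% were called in either direction. Of the tested members, 6 (*Hoxa3*, *Hoxa4*, *Hoxa7*, *Hoxc9*, *Hoxc10* and *Hoxc11*) had a WT mean under 0.1 FPKM and entered the test only through their KO values, so the share called among the tested members is not a measure of how often Hox genes changed. Among the 8 members with a WT mean of at least 0.1 FPKM, tested with genes chosen on the WT libraries alone, 4 were called, among them *Hoxc4*, *Hoxc12* and *Hoxc13*. In that test 18.3% of all genes were higher. The count of 9 depended on single libraries. Without KO replicate 2 it was 4, and without WT replicate 3 it was 5.

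**Figure D1:**
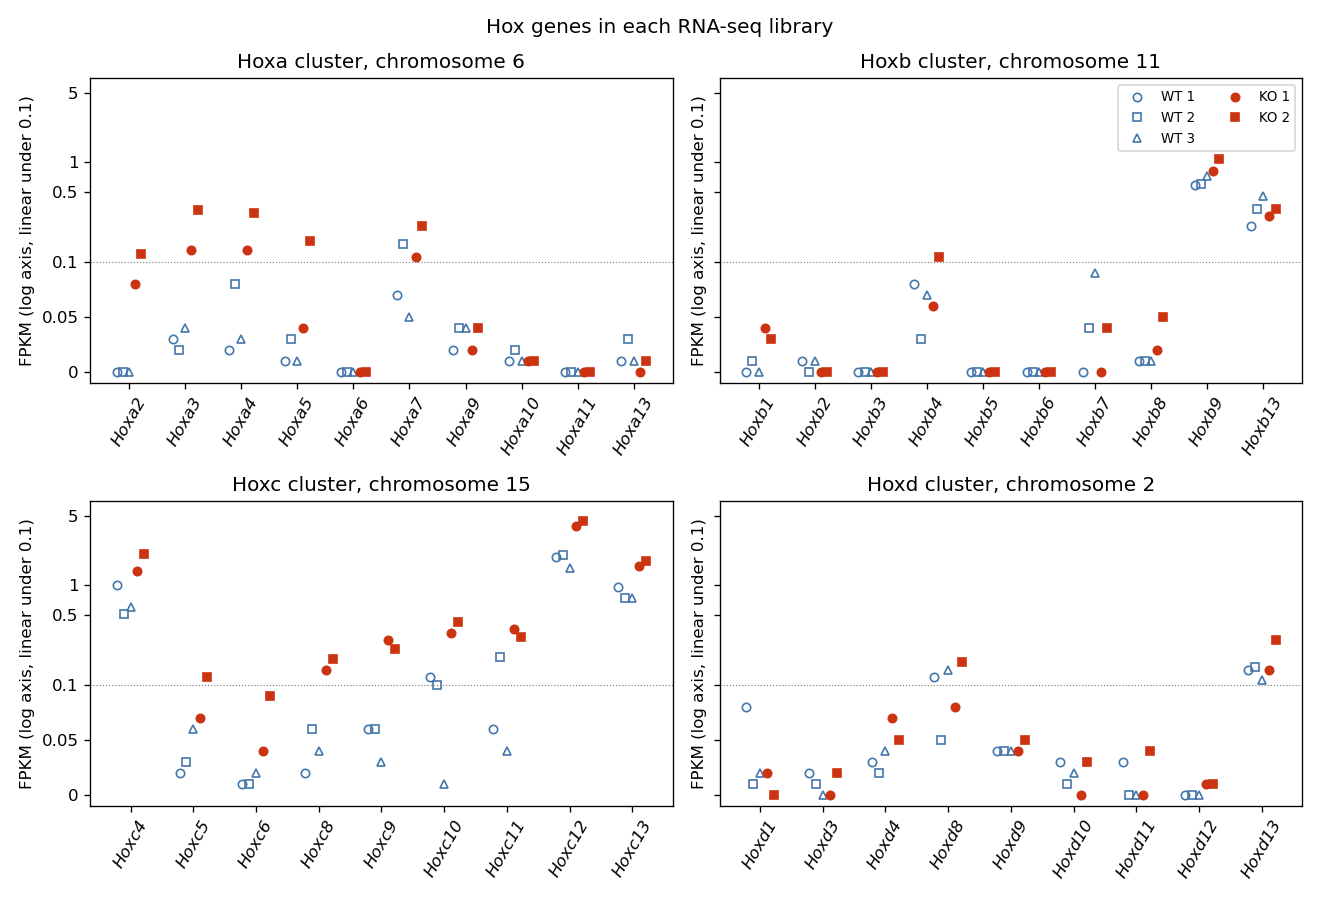
FPKM of the Hox genes, with 1 of the 39 not shown (vertical axis, logarithmic above 0.1 FPKM and linear below) in the 3 WT libraries (open blue) and 2 KO libraries (filled red), 1 panel for each cluster with genes ordered by paralogue group. The dotted line marks 0.1 FPKM. In the Hoxc panel both red points lie above all blue points for all 9 genes, and among the Hoxa genes shown this holds for *Hoxa2* to *Hoxa5* only.

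The Hoxc cluster held most of the Hox RNA, 56.8 to 67.2% of the summed FPKM in WT and 65.5 to 72.9% in KO. Its summed level was 4.16, 3.72 and 3.05 FPKM in WT and 8.09 and 9.68 FPKM in KO, a ratio of 2.44 with no overlap between the groups. Of the 9 genes 6 were tested and 6 were called higher, where 22.7% of the tested genes of chromosome 15 were higher and 16.1% lower. Since *Hoxc9*, *Hoxc10* and *Hoxc11* entered the test only through their KO values, nothing is read from this count, which was 3 with genes chosen on the WT mean and 3 without KO replicate 2. All 9 genes of the cluster had both KO libraries above all WT libraries. *Hoxc12*, a posterior gene at chr15:102936826-102938609 in the RefSeq annotation of GRCm38.p6, was the Hox gene with the highest level in every library. It was at 1.91, 2.01 and 1.49 FPKM in WT and at 3.92 and 4.49 FPKM in KO. These values rest on about 73 to 113 fragments in the WT libraries and about 196 and 239 in the KO libraries. Its log2 fold change was 1.19 (SE 0.14, limma's adjusted p = 0.00179).

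*Hoxc13*, the most posterior gene of the cluster and known for its role in hair and nail formation, was at 0.96, 0.75 and 0.75 FPKM in WT and at 1.56 and 1.76 FPKM in KO. The groups were again apart, with a log2 fold change of 0.94 (SE 0.15, limma's adjusted p = 0.0045). *Hoxc4*, at the anterior end of the cluster, was at 1.00, 0.51 and 0.61 FPKM in WT and at 1.39 and 2.08 FPKM in KO. WT replicate 1 was the highest of the WT libraries and both KO libraries lay above it, and the log2 fold change was 1.21 (SE 0.29, limma's adjusted p = 0.0193). The *Hoxc4* call was lost without WT replicate 2 (limma's adjusted p = 0.0582), WT replicate 3 (0.0646) or KO replicate 2 (0.125).

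The 3 genes between, which pattern the trunk and hindlimb level, were near the limit of detection in WT. *Hoxc9* was at 0.06, 0.06 and 0.03 FPKM in WT and at 0.28 and 0.23 FPKM in KO, or about 3 to 6 fragments against 25 and 22. *Hoxc10* was at 0.12, 0.10 and 0.01 FPKM in WT and at 0.33 and 0.43 FPKM in KO. *Hoxc11* was at 0.06, 0.19 and 0.04 FPKM in WT and at 0.36 and 0.30 FPKM in KO. Both KO libraries lay above the WT libraries for each of these genes. Their log2 fold changes were 1.25 for *Hoxc9* (SE 0.22, limma's adjusted p = 0.0067), 1.497 for *Hoxc10* (SE 0.35, limma's adjusted p = 0.0164) and 1.20 for *Hoxc11* (SE 0.35, limma's adjusted p = 0.0353). Without either KO library the calls of *Hoxc10* (limma's adjusted p = 0.055 without replicate 1 and 0.096 without replicate 2) and *Hoxc11* (0.145 and 0.108) were lost, as was that of *Hoxc11* without WT replicate 1 (0.0969) or 3 (0.0892). The remaining Hoxc genes, *Hoxc5*, *Hoxc6* and *Hoxc8*, stayed between 0.01 and 0.18 FPKM, under the filter on low values. The highest of them, *Hoxc8*, was at 0.02, 0.06 and 0.04 FPKM in WT and at 0.14 and 0.18 FPKM in KO.

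In the Hoxa cluster, 4 of the 11 genes were tested and 3 were called higher, where 37.4% of the tested genes of chromosome 6 were higher and 12.7% lower. Of the 3, *Hoxa3* and *Hoxa4* entered the test only through their KO values, so nothing is read from this count. The summed level was 0.62, 0.88 and 0.59 FPKM in WT and 1.42 and 2.78 FPKM in KO, a ratio of 3.01. KO replicate 2 was 1.96 times KO replicate 1, so the KO mean rests on a pair of libraries that differed more from each other than the WT libraries did.

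*Hoxa3*, which patterns the neck and pharyngeal arches, was at 0.03, 0.02 and 0.04 FPKM in WT and at 0.13 and 0.33 FPKM in KO. Its exons share 15.3% of their length with a noncoding gene on the opposite strand, *Hoxaas2*, and since the use of strand in counting is not stated, reads from that stretch cannot be told apart. *Hoxa4* was at 0.02, 0.08 and 0.03 FPKM in WT and at 0.13 and 0.31 FPKM in KO. For these genes KO replicate 2 held more fragments than KO replicate 1, about 46 against 17 for *Hoxa3* and about 26 against 10 for *Hoxa4*, and both KO libraries were above WT. The log2 fold changes were 1.28 for *Hoxa3* (SE 0.32, limma's adjusted p = 0.0208) and 1.12 for *Hoxa4* (SE 0.34, limma's adjusted p = 0.0395). Neither call held without KO replicate 2, where limma's adjusted p was 0.0702 for *Hoxa3* and 0.176 for *Hoxa4*. The *Hoxa3* call was also lost without WT replicate 1, 2 or 3 (limma's adjusted p of 0.0563, 0.0595 and 0.0515), and that of *Hoxa4* without WT replicate 1 (0.104) or 3 (0.103).

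*Hoxa7* was at 0.07, 0.15 and 0.05 FPKM in WT and at 0.11 and 0.23 FPKM in KO, with overlapping groups and no call (log2 fold change 0.51, SE 0.33, limma's adjusted p = 0.261). *Hoxa2*, a hindbrain and neural crest gene, was listed at 0 in all 3 WT libraries and at 0.08 and 0.12 FPKM in KO. *Hoxa5* was at 0.01, 0.03 and 0.01 FPKM in WT and at 0.04 and 0.16 FPKM in KO. Both were under the filter on low values. Counted by position, a division made after the values were seen, 0 of the 6 genes from *Hoxa6* to *Hoxa13* had both KO libraries above WT. Of those 6, *Hoxa6* and *Hoxa11* were listed at 0 throughout and could not show such a separation. Among all genes measured, 19.6% had both KO libraries above WT. The share was 7.02% among genes above 0 in some library but under a mean of 0.1 FPKM. A count of 0 of 6 is near these shares, so no boundary within the cluster is read from it.

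**Figure D2:**
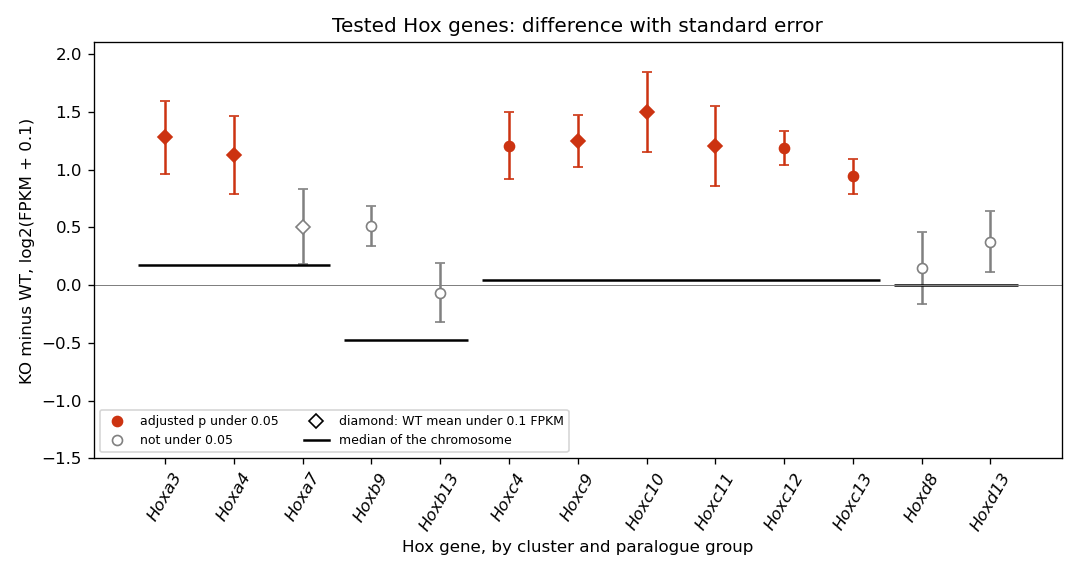
KO minus WT difference on the log2(FPKM + 0.1) scale (vertical axis) for the tested Hox genes, with 1 of the 14 not shown, and with standard errors from limma as bars. Filled red symbols passed the adjusted threshold, diamonds had a WT mean under 0.1 FPKM and black lines give the median of all tested genes of the chromosome, which is -0.47 for chromosome 11 and between -0.0017 and 0.17 for the other 3. The 6 tested Hoxc genes and 2 of the 3 Hoxa genes shown are filled, and none of the Hoxb and Hoxd genes are.

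No gene of the Hoxb cluster passed the threshold. Without the filter on low values *Hoxb1* did (limma's adjusted p = 0.030), and with a pseudocount of 1 *Hoxb9* did (0.0493). The summed level was 0.92, 1.03 and 1.36 FPKM in WT and 1.23 and 1.66 FPKM in KO, a ratio of 1.31 with overlapping groups. *Hoxb9*, a thoracic-level gene at chr11:96271330-96276595, was at 0.59, 0.60 and 0.72 FPKM in WT and at 0.82 and 1.09 FPKM in KO. Both KO libraries were above WT, and the log2 fold change was 0.51 (SE 0.17, limma's adjusted p = 0.0566). *Hoxb13*, which lies apart from the other Hoxb genes and is known from the prostate and tail, was at 0.23, 0.34 and 0.46 FPKM in WT and at 0.29 and 0.34 FPKM in KO. Its groups overlapped (log2 fold change -0.06, SE 0.26, limma's adjusted p = 0.863).

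The Hoxb result sits on a chromosome that differed between the genotypes as a whole. Of the 1224 tested genes of chromosome 11, 67.4% were lower in KO and 2.7% higher, with a median log2 fold change of -0.47, where the median of all tested genes was -0.01. Measured against this median, *Hoxb9* stood 0.99 higher in KO (limma's adjusted p = 0.0071) and *Hoxb13* 0.41 higher (limma's adjusted p = 0.238). *Hoxb9* also passed without KO replicate 1 (limma's adjusted p = 0.0458). The chromosomes of the other clusters had medians of 0.17 (chromosome 6), 0.05 (chromosome 15) and -0.0017 (chromosome 2). With each chromosome's median subtracted, *Hoxa4* lost its call (limma's adjusted p = 0.0681), and 9 Hox genes were called, again all higher.

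The Hoxd cluster was the lowest of the 4. Of its 9 genes 2 were tested and 0 were called, where 16.7% of the tested genes of chromosome 2 were higher and 18.9% lower. Its summed level was 0.49, 0.29 and 0.37 FPKM in WT and 0.36 and 0.65 FPKM in KO, with overlapping groups and a ratio of 1.32, which was 0.94 without KO replicate 2. *Hoxd13*, the posterior gene known for digit formation, was at 0.14, 0.15 and 0.11 FPKM in WT and at 0.14 and 0.28 FPKM in KO. *Hoxd8* was at 0.12, 0.05 and 0.14 FPKM in WT and at 0.08 and 0.17 FPKM in KO. Neither was called, with log2 fold changes of 0.38 for *Hoxd13* (SE 0.26, limma's adjusted p = 0.294) and 0.15 for *Hoxd8* (SE 0.31, limma's adjusted p = 0.740). For both genes KO replicate 1 lay within the range of WT. The *Hoxd13* difference was 0.045 without KO replicate 2 and 0.71 without KO replicate 1, and that of *Hoxd8* was -0.15 without KO replicate 2.

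**Figure D3:**
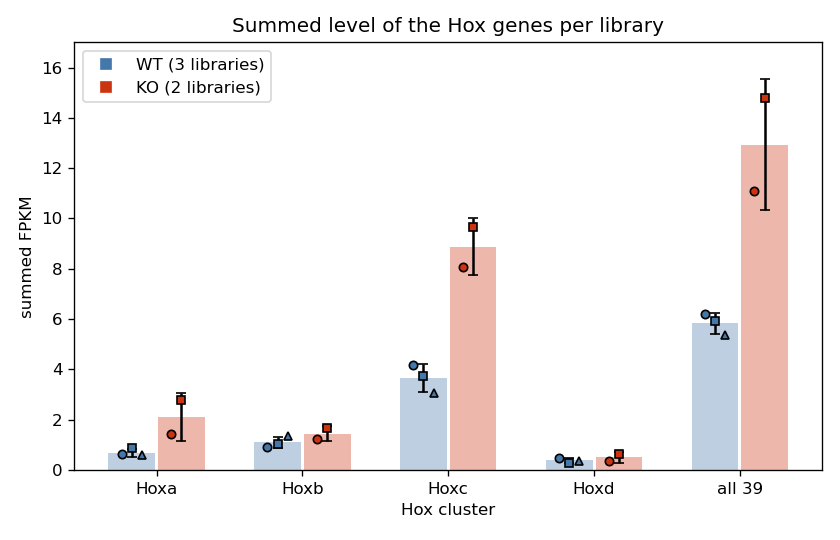
Summed FPKM (vertical axis) of the Hox genes of each cluster and of all 39 genes, with bars at the group mean, error bars of 1 SD and a point for each of the 3 WT (blue) and 2 KO (red) libraries. The KO points lie above all WT points for Hoxa, Hoxc and the total, and overlap with WT for Hoxb and Hoxd.

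The 25 Hox genes under a mean of 0.1 FPKM ranged from 0 to 0.18 FPKM in single libraries, or at most about 24 fragments. Their highest mean was that of *Hoxc8* and the lowest were those of *Hoxa6*, *Hoxa11*, *Hoxb3*, *Hoxb5* and *Hoxb6*, listed at 0 in all 5 libraries. Both KO libraries were above all WT libraries for 9 of the 20 that were above 0 in some library, against 7.02% of such low genes of the table. These were *Hoxa2*, *Hoxa5*, *Hoxb1*, *Hoxb8*, *Hoxc5*, *Hoxc6*, *Hoxc8*, *Hoxd4* and *Hoxd12*. For *Hoxa5*, *Hoxb8*, *Hoxc5*, *Hoxd4* and *Hoxd12* the lowest KO value exceeded the highest WT value by only the rounding step of the table. For *Hoxd12* this was about 0 fragments in each WT library against about 1 in each KO library. Tested without the filter on low values, 3 of these 20 genes were called, all higher, near the 13.1% of all genes that were higher. They were *Hoxa2* (log2 fold change 0.99, limma's adjusted p = 0.0046), *Hoxc8* (0.90, limma's adjusted p = 0.016) and *Hoxb1* (0.39, limma's adjusted p = 0.030). The values of *Hoxb1*, from 0 to 0.04 FPKM, lie near the rounding step of the table. The posterior genes, of paralogue groups 9 to 13, carried most of the Hox RNA, with summed levels of 4.21, 4.34 and 3.73 FPKM in WT and 7.78 and 9.11 FPKM in KO.

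Noncoding genes of the clusters were examined next, 19 of them by name, of which 16 were in the table and 4 were tested. *Halr1*, a long noncoding RNA gene 41.7 kb outside the cluster on the side away from *Hoxa13*, was the highest called among them. It was at 3.42, 3.48 and 3.71 FPKM in WT and at 11.4 and 20.9 FPKM in KO. Both KO libraries were above WT by far more than the WT spread, with KO replicate 2 the higher as for the Hoxa genes, and the log2 fold change was 2.096 (SE 0.23, limma's adjusted p = 0.00136). *Hotairm1*, a long noncoding RNA gene inside the Hoxa cluster, was at 0.86, 0.47 and 0.31 FPKM in WT and at 1.74 and 1.00 FPKM in KO. Here KO replicate 1 was the higher, and a log2 fold change of 1.23 (SE 0.39) just passed (limma's adjusted p = 0.0485). That call was lost under 10 of 15 other settings, among them leaving out WT replicate 2 (limma's adjusted p = 0.129), WT replicate 3 (0.112), KO replicate 1 (0.246) or KO replicate 2 (0.0747).

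The clusters also hold the genes of 2 microRNA families, miR-10 and miR-196, whose mature forms repress Hox messengers. The mature sequences from RefSeq (GRCm38.p6) are shown with the seed, bases 2 to 8, in capitals, because the copies in different clusters share it.
mmu-miR-196a-5p: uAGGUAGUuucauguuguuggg
mmu-miR-196b-5p: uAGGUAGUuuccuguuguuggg
mmu-miR-10a-5p: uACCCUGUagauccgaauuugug
mmu-miR-10b-5p: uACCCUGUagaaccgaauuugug
The hairpin gene *Mir196a-1*, on the Hoxb side at chr11:96265164-96265265, was at 13.9, 9.32 and 8.48 FPKM in WT and at 7.12 and 7.10 FPKM in KO. Both KO libraries were below WT, without a call (log2 fold change -0.53, SE 0.20, limma's adjusted p = 0.0767), near the median of -0.47 of chromosome 11. *Mir10a*, *Mir10b*, *Mir196a-2* and *Mir196b* were listed at 0 in all libraries. Long-fragment libraries of total RNA do not measure mature microRNAs, so these values concern the precursor region only. *Mir615*, a hairpin inside *Hoxc5*, was listed at 0 in 4 libraries and at 0.55 FPKM in WT replicate 2.

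Genes around the clusters were compared with the members over 500 kb on each side. Around Hoxa, 4 of 5 tested neighbours were higher, where 37.4% of chromosome 6 was, with *Skap2*, an adaptor protein gene, at 16.51, 17.45 and 18.39 FPKM in WT and at 28.7 and 32.2 FPKM in KO (log2 fold change 0.80, SE 0.07, limma's adjusted p = 6.4e-04). With the median of chromosome 6 subtracted, *Hibadh* (0.14, limma's adjusted p = 0.0838) and *Tax1bp1* (0.04, limma's adjusted p = 0.466) lost their calls, and that of *Tax1bp1* was also lost without WT replicate 1 (0.0542), WT replicate 3 (0.0513) or KO replicate 2 (0.0633). *Evx1*, the homeobox gene beyond *Hoxa13*, was at 0.09, 0.11 and 0.12 FPKM in WT and at 0.18 and 0.14 FPKM in KO and was not called (limma's adjusted p = 0.253). Around Hoxb, 17 of 19 tested neighbours were lower and 0 were higher, where 67.4% of chromosome 11 was lower, from -0.37 for *Nfe2l1* to -2.19 for *Copz2* on the log2 scale, with *Ttll6*, the nearest, at -1.73. Of these, genes of at least 1 FPKM and a change of at least 0.5 included *Calcoco2* (-1.71), *4833417C18Rik* (-1.31), *Snf8* (-0.87), *B130006D01Rik* (-0.76), *Zfp652* (-0.69), *Cbx1* (-0.59), *Ube2z* (-0.59), *Mir3063* (-0.53) and *Atp5g1* (-0.52). After subtraction of the median of chromosome 11, 7 of the 19 remained lower. Around Hoxc, 8 of 24 were higher and 1 was lower, a called share of 37.5% beside 38.8% for chromosome 15 as a whole. Of the 8, *Mir6963* was listed at 0 in WT and entered the test only through its KO values. Without KO replicate 2 the calls of *Atf7* (limma's adjusted p = 0.112), *Itga5* (0.0872), *Pcbp2* (0.0593), *Prr13* (0.21) and *Sp1* (0.0901) were lost. Each of these was also lost without at least 1 WT library. The largest change in a gene of at least 1 FPKM was that of *Nckap1l*, 416.9 kb away, from 2.52, 2.18 and 2.29 to 5.23 and 6.44 FPKM (log2 fold change 1.28, SE 0.11, limma's adjusted p = 7.1e-04). *Itga5*, an integrin gene, was higher (0.56, SE 0.14, limma's adjusted p = 0.0214) and *Gtsf1* lower (-0.78, SE 0.20, limma's adjusted p = 0.024), but the *Itga5* call was lost without WT replicate 2 (limma's adjusted p = 0.0748), WT replicate 3 (0.0687) or KO replicate 2 (0.0872). The *Gtsf1* call was lost without WT replicate 1, 2 or 3 (limma's adjusted p of 0.0696, 0.0538 and 0.0796) or KO replicate 1 (0.0728). The *Smug1* gene, the nearest tested neighbour on the *Hoxc4* side, was not called (log2 fold change 0.31, SE 0.12, limma's adjusted p = 0.0903), and neither was *Calcoco1*, the nearest on the *Hoxc13* side (-0.0038, SE 0.08, limma's adjusted p = 0.975). Around Hoxd, *Lnp* and *Mtx2* were both higher by small amounts, with log2 fold changes of 0.24 (SE 0.07, limma's adjusted p = 0.039) and 0.18 (SE 0.05, limma's adjusted p = 0.0211). The *Lnp* call was lost with any of the 5 libraries left out (limma's adjusted p of 0.0536 to 0.147), and that of *Mtx2* with any but WT replicate 1 (0.0533 to 0.0903).

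**Figure D4:**
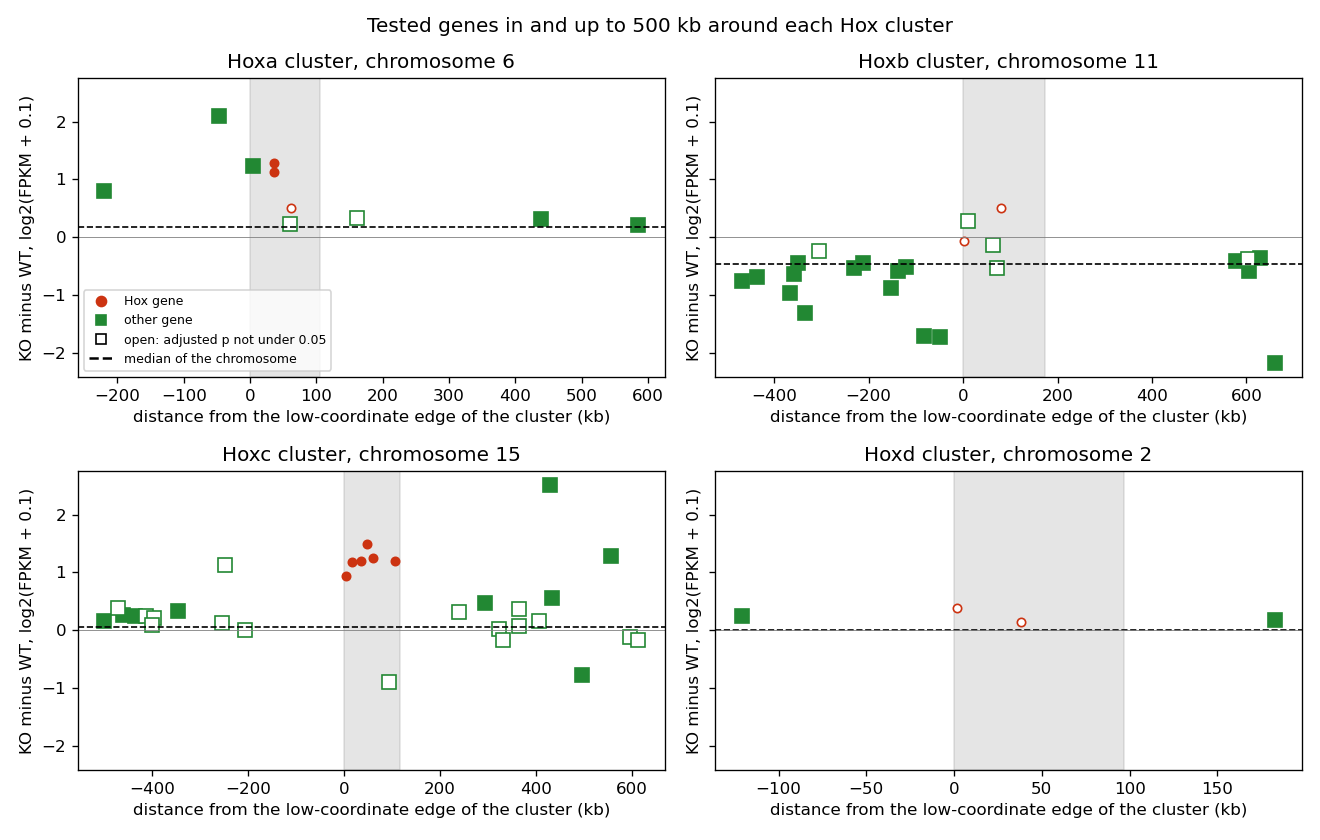
KO minus WT difference on the log2(FPKM + 0.1) scale (vertical axis) of tested Hox genes (red circles, 1 of the 14 not shown) and other tested genes (green squares) by distance of the gene's middle from the low-coordinate edge of each cluster (horizontal axis, kb). Grey bands mark the clusters, filled symbols passed the adjusted threshold and dashed lines are chromosome medians. The filled Hoxc genes lie between 0.94 and 1.497, with *Hoxc9*, *Hoxc10* and *Hoxc11* in the test only through their KO values, and nearly all genes around Hoxb lie below 0.

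Genes that act with or on Hox genes were counted over lists chosen by pathway. Their median log2 fold changes were -0.0052 for TALE cofactors, 0.53 for ParaHox, Evx and Mnx genes, -0.14 for the retinoic acid pathway, -0.10 for PRC2 and 0.02 for trithorax and MLL genes, beside -0.01 for all tested genes. The ParaHox, Evx and Mnx median rests on 4 tested genes. Among them *Cdx2*, with a WT mean of 0.07 FPKM, entered the test only through its KO values, so nothing is read from this median. Of the 9 cofactors of the TALE homeobox class, which bind DNA together with Hox proteins, 2 were higher in KO and 0 lower, a called share of 22.2% beside 41.1% of all tested genes. *Meis2* was at 0.25, 0.29 and 0.09 FPKM in WT and at 1.58 and 1.80 FPKM in KO, a clear separation with a log2 fold change of 2.59 (SE 0.33, limma's adjusted p = 0.00195). *Pknox2* was at 2.94, 2.11 and 2.34 FPKM in WT and at 4.09 and 4.05 FPKM in KO (log2 fold change 0.72, SE 0.14, limma's adjusted p = 0.0094), a call that was lost without KO replicate 1 (limma's adjusted p = 0.0544) or 2 (0.0576). The lowest of the list was *Meis1* (log2 fold change -0.47, SE 0.21, limma's adjusted p = 0.114), which lies on chromosome 11 and stood at the median of that chromosome. Of the 9 ParaHox, Evx and Mnx genes, relatives of the Hox genes outside or beside the clusters, 4 were tested and 1 was called. This was *Cdx1*, a direct activator of Hox genes that responds to retinoic acid and Wnt, at 3.92, 3.63 and 4.37 FPKM in WT and at 12.6 and 15.8 FPKM in KO (log2 fold change 1.80, SE 0.12, limma's adjusted p = 3.9e-04). *Cdx2* was at 0.07, 0.12 and 0.02 FPKM in WT and at 0.21 and 0.14 FPKM in KO and was not called (limma's adjusted p = 0.117), and *Mnx1* had the lowest value of the list (log2 fold change -0.75, SE 0.40, limma's adjusted p = 0.185).

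Of the 19 retinoic acid pathway genes 13 were tested, and 6 were lower in KO and 1 was higher, where 22.3% of all tested genes were lower and 18.8% higher. Of the 6, the receptor gene *Rara* on chromosome 11 (-0.36) was at 0.12 with the median of its chromosome subtracted. The *Aldh1a2* call (-0.34, limma's adjusted p = 0.0224) was lost without WT replicate 1 (0.0718), 2 (0.0631) or 3 (0.0579) or KO replicate 2 (0.0973). *Stra8*, a retinoic acid target of germ cells, had the largest fall, from 13.45, 14.96 and 21.04 to 1.64 and 1.43 FPKM (log2 fold change -3.32, SE 0.19, limma's adjusted p = 3.3e-04). The genes of the binding proteins *Crabp1* (log2 fold change -1.69, SE 0.16, limma's adjusted p = 7.9e-04) and *Crabp2* (-1.12, SE 0.15, limma's adjusted p = 0.0022) were lower too. *Aldh1a3*, which makes retinoic acid and entered the test only through its KO values, was higher, from 0.07, 0.04 and 0.08 to 0.47 and 0.46 FPKM (log2 fold change 1.80, SE 0.21, limma's adjusted p = 0.0015). The receptor gene *Rarb* and the degrading enzymes *Cyp26a1*, *Cyp26b1* and *Cyp26c1* stayed under 0.1 FPKM in every library.

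Among the 11 measured PRC2 genes, 3 were higher and 2 were lower, the share called being 45.5% against 41.1% of all tested genes. *Suz12*, a core subunit whose gene lies on chromosome 11, was at 139.9, 138.3 and 144.5 FPKM in WT and at 71.8 and 64.1 FPKM in KO, a log2 fold change of -1.05 (SE 0.06, limma's adjusted p = 3.3e-04). With the median of its chromosome subtracted, the difference of *Suz12* was -0.57. *Ezh1*, also on chromosome 11, had a log2 fold change of -0.997 (SE 0.08, limma's adjusted p = 6.4e-04), or -0.52 with that median subtracted. *Rbbp7*, *Ezh2* and *Eed* were higher, *Rbbp7*, the highest of the list, by 0.29 (SE 0.05, limma's adjusted p = 0.0044), *Ezh2* by 0.20 (SE 0.03, limma's adjusted p = 0.0055) and *Eed* by 0.19 (SE 0.04, limma's adjusted p = 0.0088). The *Ezh2* difference was 0.02 with the median of chromosome 6 subtracted (limma's adjusted p = 0.709). The core subunit gene *Rbbp4* was not called (-0.02, SE 0.04, limma's adjusted p = 0.724). Trithorax and MLL complexes keep Hox genes active. Of the 11 genes on the list named for them, not all of which encode complex subunits, 1 was higher and 1 lower. These were *Wdr5* by 0.16 (SE 0.04, limma's adjusted p = 0.0252) and *Kdm6b*, on chromosome 11, by -0.42 (SE 0.07, limma's adjusted p = 0.005). The *Kdm6b* difference was 0.06 once the median of the chromosome was subtracted, and the *Wdr5* call was lost without KO replicate 2 (limma's adjusted p = 0.0981) or WT replicate 1, 2 or 3 (0.0547, 0.0805 and 0.0752).

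Markers of other cell types are given beside the Hox genes, and their counts stand beside 18.8% of all tested genes higher and 22.3% lower. Only part of each list was tested. This was 4 of the primitive streak and mesoderm markers, 9 of the neural, 5 of the endoderm, 7 of the trophoblast and 6 of the fibroblast markers. Of 12 markers of primitive streak and mesoderm, 2 were higher and 0 lower, with summed levels of 2.19 to 2.56 FPKM in WT and 4.39 to 5.01 FPKM in KO. *Eomes* was at 0.51, 0.60 and 0.38 FPKM in WT and at 2.13 and 2.40 FPKM in KO, and *T* was the other, a call lost without WT replicate 1 (limma's adjusted p = 0.0783), WT replicate 3 (0.0816) or KO replicate 1 (0.143). The lowest was *Mixl1* (-0.02 on the log2 scale). Of 12 neural progenitor markers 1 was higher and 1 lower, with sums of 24.1 to 25.7 FPKM in WT and 19.3 to 24.8 FPKM in KO. *Nes* was the lower (-0.998 on the log2 scale) and *Sox1*, which entered the test only through its KO values, the higher, from 0.08, 0.10 and 0.08 to 0.47 and 0.67 FPKM, while *Pax3* and *Neurog2* stayed at 0.04 FPKM or less. Of 12 endoderm markers 2 were higher, *Lama1* and *Sox7*, with sums of 1.87 to 2.29 FPKM in WT and 6.55 to 8.31 FPKM in KO. Most of each sum was *Lama1*, at 1.21, 1.05 and 1.03 FPKM in WT and at 5.0 and 6.94 FPKM in KO. *Gata4* was the lowest (-0.48 on the log2 scale) and *Gata6*, *Sox17* and *Foxa2* stayed at 0.06 FPKM or less. Of 11 trophoblast markers 1 was higher (*Krt8*) and 1 lower (*Tfap2c*, lost without KO replicate 2, limma's adjusted p = 0.0621), with sums of 17.8 to 19.4 FPKM in WT and 15.5 to 16.8 FPKM in KO, and *Tpbpa* and *Prl3d1* were listed at 0. Of 16 fibroblast markers 1 was higher (*Vim*) and 1 lower (*Mmp2*), with sums of 43.65 to 49.15 FPKM in WT and 63.4 to 92.8 FPKM in KO that consist almost wholly of *Vim*. The *Mmp2* call was lost without WT replicate 3 (limma's adjusted p = 0.0521) or KO replicate 1 (0.0785). The part of these genes in the Hox values was not tested.

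Binding of ZFP57 near the clusters was read from a list of 1423 peaks in C57BL/6J cells. Per the study's methods, peaks were called in each replicate and kept where more than 1 of the WT replicates had them. No cluster had a peak within 20 kb. The Hoxa cluster had 2 peaks within 100 kb, both beyond its *Hoxa13* end and both also in the shorter list of 743 peaks named for hybrid lines. The nearest, at chr6:52348344-52348547, lay 87.5 kb from the cluster and on the far side of *Evx1* from it. The other clusters were farther away, with the nearest peak at 381.0 kb for Hoxd, 1699.2 kb for Hoxb and 2378.2 kb for Hoxc. The sequence of the nearest Hoxa peak is shown because it is the closest listed site to any Hox gene, with the hexanucleotide TGCCGC (here as its reverse complement GCGGCA) in capitals, read from the plus strand of GRCm38.p6.
peak near Hoxa: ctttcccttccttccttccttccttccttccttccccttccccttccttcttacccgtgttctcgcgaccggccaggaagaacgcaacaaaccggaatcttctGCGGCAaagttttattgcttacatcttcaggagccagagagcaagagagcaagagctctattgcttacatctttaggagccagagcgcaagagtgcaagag
All 204 bases of this peak are soft-masked as repeats in the reference, and it holds 8 CpG and 1 copy of the hexanucleotide.

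The same 6 letters, on either strand, occurred in 11.6% of all 32851 RefSeq promoters (250 bases before to 50 after the start). Of the 39 Hox genes 22 had an entry, with 24 promoters, and 2 of these held it, those of *Hoxa5* and *Hoxd1*. The 150 bases directly before these starts are shown for GRCm38.p6, at chr6:52204588-52204737 on the minus strand and chr2:74762830-74762979 on the plus strand, with the hexanucleotide in capitals.
Hoxa5 promoter: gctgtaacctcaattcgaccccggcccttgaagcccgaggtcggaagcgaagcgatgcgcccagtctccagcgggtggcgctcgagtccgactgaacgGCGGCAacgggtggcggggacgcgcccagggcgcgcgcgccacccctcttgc
Hoxd1 promoter: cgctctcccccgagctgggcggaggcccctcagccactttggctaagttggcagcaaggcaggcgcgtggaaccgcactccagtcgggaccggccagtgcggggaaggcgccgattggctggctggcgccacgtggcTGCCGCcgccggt
No ZFP57 peak overlapped either. *Hoxa5* was among the low genes with both KO libraries above WT, whereas *Hoxd1* was at 0.08, 0.01 and 0.02 FPKM in WT and at 0.02 and 0 FPKM in KO, with overlapping groups. Of the called members *Hoxa3* and *Hoxc4* also had an entry, and neither held the letters.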

How the data were processed

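RNA-seq libraries of 3 WT and 2 KO ES samples were used. The authors deposited expression as FPKM per gene, aligned to mm10. The labels list STAR 2.5.2, BWA 0.6.2, Trim Galore 0.2.7, FastQC 0.11.5, Picard and MACS2 2.1.0 without roles, and the counting tool, annotation and use of strand are not given in the sources used here. ZFP57 peaks were used as positions from the deposited lists.

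The 14617 genes averaging 0.1 FPKM or more across the 5 libraries were tested with limma 3.58.1 in R 4.3.3 on log2(FPKM + 0.1), with an intensity trend and Benjamini-Hochberg adjustment over all of them. FPKM are not counts, so no count model was used, and the fragment numbers are approximate values inferred from FPKM steps and gene length. Library pairs were compared and no duplicates were seen. Sums, medians and overlaps were computed in Python 3.11.15. Gene positions, promoters and mature microRNAs came from RefSeq (GRCm38.p6). The script for the test was tested on simulated data.

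All 39 Hox genes are counted in sums and calls, and the values of 1 of them are not reported here. Those averaging 0.1 FPKM or more were named with each library's value, the rest by range with the highest and lowest named. Of neighbours and lists, every called gene with a mean of at least 1 FPKM and a log2 change of at least 0.5 was named, with the highest and lowest tested gene of each list. Other genes were named after their values were seen. The members, lists and tests were chosen with earlier results of these data known. Alternatives covered the pseudocount, filter, scaling, chromosome median, variance trend, replicate number as a block, size of change and each library left out. The filter on the WT mean was chosen after seeing the data. ChIP-seq libraries were not analysed here beyond the peak lists.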

Additional observations from a re-analysis of the deposited data

How the results depend on the processing

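The 9 called Hox genes became 3 with a filter of 1 FPKM, 4 with a filter on the WT mean (chosen after seeing the data) and 4 to 8 with single libraries left out. Only 3 Hox genes reached the filter of 1 FPKM, so the count of 3 there reflects genes that left the test. Of the 9 called genes, 2 (*Hoxc12* among them) kept the call in every setting that could test them. The replicate numbers were also fitted as a block, although the labels tie them to no shared batch and same-numbered samples did not deviate together (correlations of -0.0681 and -0.0357 over 2 pairs). With the block 3 Hox genes were called and 20 of the 32 called flanking genes. Flanking genes called were 18 with the chromosome median subtracted and 7 with a log2 change of at least 1, which also left 9 of 19 called list genes. Of the 4 tested Hoxa and 6 tested Hoxc genes, 3 each entered the test only through their KO values, so the size of the cluster medians supports nothing. The Hoxa median of 1.18 became 0.71 with no filter, 1.77 with a pseudocount of 0.01 and 0.24 with 1, and ranged from 0.77 without KO replicate 2 to 1.57 without KO replicate 1. The Hoxc median of 1.20 became 1.62 and 0.45, and 1.19 with no filter, a filter of 1 FPKM or another scaling, with a range of 1.10 to 1.28 over libraries left out. Genes at 0.1 FPKM or more numbered 8 in WT and 17 in KO. A level of 0.05 gave 13 in WT, and a level of 1 gave 1 in WT and 4 in KO. The 2 peaks within 100 kb became 0 within 20 kb. At 0.1 in place of 1 FPKM, detected markers were 6 fibroblast, 9 neural, 4 mesoderm, 5 endoderm and 7 trophoblast genes. *Hoxb13* turned positive with the chromosome median subtracted (0.41), the replicate block (0.12), without WT replicate 3 (0.12) or without KO replicate 1 (0.02), with a range of -0.26 to 0.12 over libraries left out. *Hoxd8* turned negative without WT replicate 2 (-0.06) or KO replicate 2 (-0.15), with a range of -0.15 to 0.44. Genes of chromosome 11 that turned positive with its median subtracted were *Gngt2* (0.0246), *Igf2bp1* (0.0295), *Kdm6b* (0.0598), *Snx11* (0.0714), *Nfe2l1* (0.11) and *Rara* (0.12). The Hoxa sum ratio ranged from 2.04 to 3.99, the Hoxd sum ratio from 0.94 to 1.70 and the Hoxd median from -0.05 to 0.57 over libraries left out. The cause of these shifts was not tested. Low Hox genes rest on few fragments, which limits their precision.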
